A study of Mus musculus with 12 samples.

Results

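The BRINP family of the mouse has 3 genes, Brinp1, Brinp2 and Brinp3, and all 3 were found by Ensembl identifier among the 25674 rows of the deposited count table. Brinp3 was selected on a measured value, the smallest p of any gene in the comparison of genotypes described here, and Brinp1 and Brinp2 because they complete the family. The genotype difference of Brinp3 is therefore given as a description, with no test. All 3 genes passed the filter on low counts and entered the test of 14813 genes, Brinp3 through the Isl1CKO libraries alone.

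BRINP stands for BMP and retinoic acid inducible neural-specific protein. The family encodes large glycoproteins that carry a MACPF domain, the fold shared with perforin and the terminal complement components, and the genes are transcribed mainly in neurons. BRINP1 was first described as DBCCR1, a gene deleted in bladder cancer, and forced expression of BRINP proteins holds cells back from entering S phase.

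Spiral ganglion neurons, the cells that link cochlear hair cells with the brainstem, were sorted for red fluorescence at E14.5 of embryonic development, with 100 cells in each sample and both ears of a single embryo behind each sample. The 6 control samples had the genotype Neurod1Cre;Rosa26tdTOM. The 6 samples of the other group, called Isl1CKO, had the genotype Neurod1Cre;Isl1loxP/loxP;Rosa26tdTOM, in which Cre deletes a loxP-flanked part of Isl1, the gene of a LIM homeodomain transcription factor. Both groups therefore carried Cre and the tdTomato reporter, on a mixed C57BL/6/sv129 background and from either sex. Cre came from a Neurod1-cre BAC transgene, so deletion and labelling both depend on when and where that transgene is active. A tag of the labels calls the numbered samples technical replicates, and the design text calls them biological. If they are not separate embryos, the p-values measure technical spread alone.

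Total counts ran from 11895603 to 13857480 per library, and levels are given as CPM after TMM scaling. At these depths 3 counts, taken as the floor of detection for counting error only, correspond to between 0.216 and 0.252 CPM. Isl1 itself averaged 1538 ± 217 CPM in controls and 1391 ± 184 CPM in Isl1CKO libraries (SD, n = 6), which did not pass the threshold (adjusted p = 0.460, edgeR), so gene-level counts do not separate the genotypes at the targeted gene and every direction below is that of libraries labelled Isl1CKO. General neuronal genes such as Tubb3, at 3210 and 3940 CPM, were abundant in both groups. Xist was at 185 to 398 CPM in controls 3 and 4 and Isl1CKO 6, with a mean of 4 Y-linked genes at 0.267 to 0.426 CPM. Xist was at 0.0831 to 0.373 CPM in controls 1, 2, 5 and 6 and Isl1CKO 1 and 4. The Y-linked mean there was 102 to 117 CPM. Each group thus came from more than 1 embryo. Transcripts of both sexes were present in 3 libraries, Isl1CKO 2, 3 and 5, with Xist at 62.9 to 132 CPM and a mean of 4 Y-linked genes at 35.7 to 87.3 CPM, although each sample is labelled as 1 embryo. Values without these libraries are therefore given for the members and for some, not all, of the other genes whose calls are described. The share of counts from mitochondrial genes also separated the groups, at 1.05% to 1.65% in controls and 0.845% to 1.02% in Isl1CKO libraries, and its part in any result below was not tested.

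The 3 genes lie at separate loci, positions being those of the same identifiers in GENCODE release M21 on GRCm38, the build named in the submitters' processing notes. Brinp1 (ENSMUSG00000028351) is on chromosome 4 at 68761514 to 68954397, minus strand. Brinp2 (ENSMUSG00000004031) is on chromosome 1 at 158245269 to 158356326, minus strand. Brinp3 (ENSMUSG00000035131) is on the plus strand of the same chromosome at 146494760 to 146902472, a span of 407.713 kb, and ends 11.3 Mb before Brinp2 begins. Their longest coding sequences are alike in length, with 760, 783 and 766 codons before the stop for Brinp1, Brinp2 and Brinp3. Aligned over their coding bases, Brinp2 and Brinp3 were identical at 71.7%, Brinp1 and Brinp2 at 63.8%, and Brinp1 and Brinp3 at 62.0%. No run of 31 bases was shared between any pair of the family's annotated transcripts, so a read of that length without mismatches could be assigned to 1 member.

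RefSeq promoter windows, from 250 bases before to 50 after an annotated start on GRCm38.p6, were found for 2 of the 3 genes, with 1 window for Brinp1 and 3 for Brinp3. The stretches below are shown because Brinp1 was the most abundant member in controls and Brinp3 in Isl1CKO libraries. The Brinp3 stretch precedes the last of its 3 RefSeq starts, at 146497687, and lies inside the GENCODE span and beyond the starts at 146495629 and 146495666, and which start was used is not known from gene counts. Both stretches lie before a RefSeq start and outside the exons that GENCODE annotates for the gene, and each is written 5′ to 3′ on the strand of its gene. Capitals mark the letters TAAT on either strand (so TAAT or ATTA), the core word recognised by homeodomain proteins.
Brinp1, chr4:68954398-68954647, minus strand: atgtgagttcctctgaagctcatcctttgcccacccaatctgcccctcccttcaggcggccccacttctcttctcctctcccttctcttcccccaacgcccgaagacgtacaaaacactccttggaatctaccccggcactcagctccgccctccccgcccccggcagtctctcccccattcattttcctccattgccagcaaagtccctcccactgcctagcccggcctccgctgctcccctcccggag
Brinp3, chr1:146497437-146497613, plus strand: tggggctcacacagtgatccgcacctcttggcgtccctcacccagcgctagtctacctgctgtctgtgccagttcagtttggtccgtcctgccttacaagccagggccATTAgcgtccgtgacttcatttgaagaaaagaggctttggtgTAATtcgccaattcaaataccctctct
The Brinp1 stretch held no TAAT, whereas the Brinp3 stretch held 2. Each of the 3 Brinp3 windows of 300 bases held 3 matches to TAAT on either strand and 1 match to CTAATG, a longer word that contains it, and 2 of these windows overlap. Among 32851 windows of the same length for all genes, 58.0% held TAAT and 7.36% held CTAATG on either strand. The Brinp1 window was richer in G and C, at 63.3%, than the Brinp3 windows, at 44.0% to 52.3%, against a median of 52.7% over all windows. No window of either gene held AGGTCA, a word bound by retinoic acid receptors and other nuclear receptors, which 16.3% of all windows held. These matches describe letters only, and no binding was measured.

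Brinp3 was close to silent in control neurons and well expressed in every Isl1CKO library. Its 6 control libraries held 2, 3, 4, 4, 14 and 5 counts in replicates 1 to 6, or 0.166 to 1.11 CPM with a median of 0.315. The 6 Isl1CKO libraries held 1147, 1493, 2773, 2516, 3045 and 1873 counts, or 90.8 to 222 CPM with a median of 165. The groups did not overlap, and the lowest Isl1CKO library lay far above the highest control. Group means of 0.416 ± 0.348 and 161 ± 53.0 CPM (n = 6, SD) gave a ratio of 388, which was 583 without control 5 (control mean 0.277 CPM), and the fitted log2 difference was 8.57. Genes past an adjusted p of 0.05 in edgeR's quasi-likelihood test made up 10.2% of those tested, 5.01% being higher and 5.19% lower in Isl1CKO libraries. Genes whose groups did not overlap made up 6.78%, with 3.13% higher and 3.65% lower. Brinp3 met both criteria, and nothing is read from this because the comparison chose it.

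High and low levels of Brinp3 were found in libraries with and without transcripts of both sexes. Isl1CKO 2, 3 and 5 averaged 182 ± 57.9 CPM and Isl1CKO 1, 4 and 6 averaged 140 ± 48.6 CPM (SD, n = 3), with single libraries of either kind interleaved. Without the former, the fitted log2 fold change of Brinp3 was 8.37. With the levels of macrophage and Schwann cell markers as covariates it was 8.74. Neither of these levels differed past the threshold between the genotypes, and the part of other cells' RNA was not tested.

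**Figure D1:**
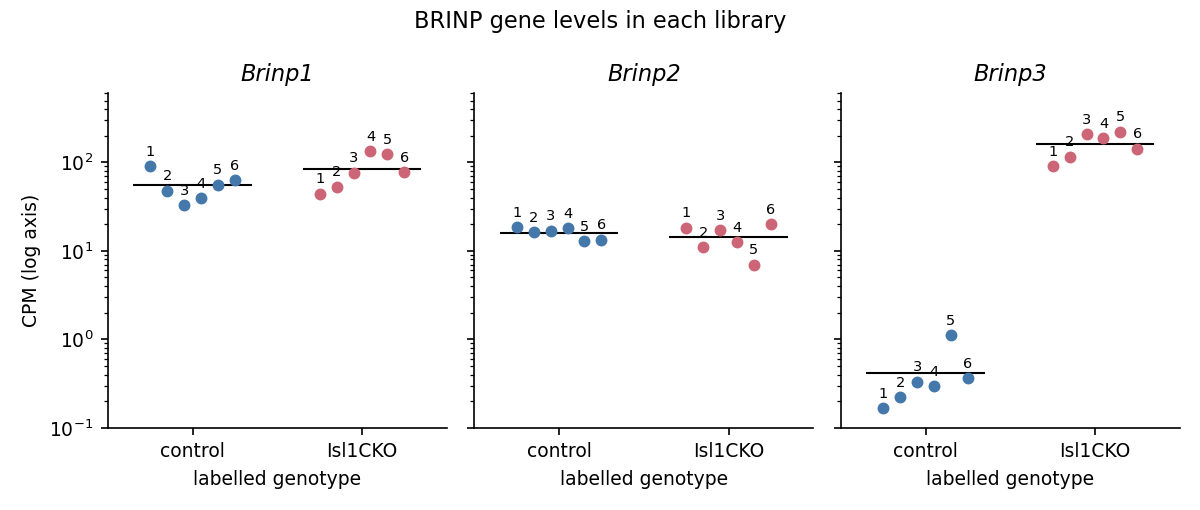
CPM of Brinp1, Brinp2 and Brinp3 (log axis) in each library, with replicate numbers beside the points and a line at the mean of each group of 6. The groups overlap for Brinp1 and Brinp2, while Brinp3 lies at 0.166 to 1.11 CPM in controls and 90.8 to 222 CPM in Isl1CKO libraries.

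Brinp1, the founding member and the one best known from the brain, was the most abundant BRINP gene of control neurons. It was at 33.0 to 90.7 CPM with a median of 51.9 in controls, and at 44.0 to 134 CPM with a median of 76.7 in Isl1CKO libraries. The groups overlapped widely: control 1 lay above all but 2 of the Isl1CKO libraries, replicates 4 and 5. The means were 55.0 ± 20.6 and 84.6 ± 36.7 CPM (SD, n = 6). The fitted log2 difference, 0.62 ± 0.29 (SE), had an unadjusted p of 0.0468 in edgeR and did not pass after adjustment over all tested genes (adjusted p = 0.205, edgeR). Over the 22 other settings tried it ran from 0.44 to 0.82, with adjusted p between 0.0934 and 0.412. Without Isl1CKO 2, 3 and 5 it was 0.62 (adjusted p = 0.406, edgeR). A rise of Brinp1 was thus not shown, and the data do not exclude one.

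Brinp2 was the scarcer of the pair expressed in controls and showed no difference beyond its spread. It was at 12.9 to 18.4 CPM with a median of 16.6 in controls, and at 7.0 to 20.1 CPM with a median of 14.8 in Isl1CKO libraries. The Isl1CKO libraries spanned the whole range of the controls, with replicate 6 above the highest control and replicates 2, 4 and 5 below the lowest. The means were 15.995 ± 2.37 and 14.3 ± 5.01 CPM (n = 6, SD). The fitted difference was -0.16 ± 0.24 (log2, SE; adjusted p = 0.751, edgeR). Without Isl1CKO 2, 3 and 5 the sign turned, to 0.08 (adjusted p = 0.915, edgeR).

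The order of the family therefore differed between the genotypes. Levels per kilobase of annotated exon allow a rough comparison of different genes. The length used covers the exons of all annotated transcripts of a gene, and which transcripts were present is not known from gene counts. On this scale, control libraries averaged 8.90 ± 3.33 CPM for Brinp1, 1.82 ± 0.271 for Brinp2 and 0.0594 ± 0.0497 for Brinp3 (SD, n = 6). In every control library Brinp1 was above Brinp2 and Brinp2 above Brinp3. In Isl1CKO libraries the same quantity was 23.0 ± 7.56 for Brinp3, 13.7 ± 5.93 for Brinp1 and 1.64 ± 0.571 for Brinp2 (SD, n = 6), and Brinp3 was the highest of the 3 in every library. Among 14799 tested genes with an annotated length, ranked by level per kilobase from the highest, Brinp1 stood at 5283 in controls and 3932 in Isl1CKO libraries, and Brinp2 at 10385 and 10742.

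Brinp3 provided between 0.141% and 1.48% of the summed BRINP level per kilobase in control libraries, and between 53.7% and 67.6% in Isl1CKO libraries. The summed level went from 7.32 to 16.8 CPM per kilobase in controls to 22.2 to 52.4 in Isl1CKO libraries, without overlap. These sums contain Brinp3 and so repeat its difference. The ratio of Brinp1 to Brinp2 per kilobase, which does not contain it, was 2.77 to 6.98 in controls and 3.41 to 24.9 in Isl1CKO libraries, where replicates 4 and 5 alone exceeded the controls.

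**Figure D2:**
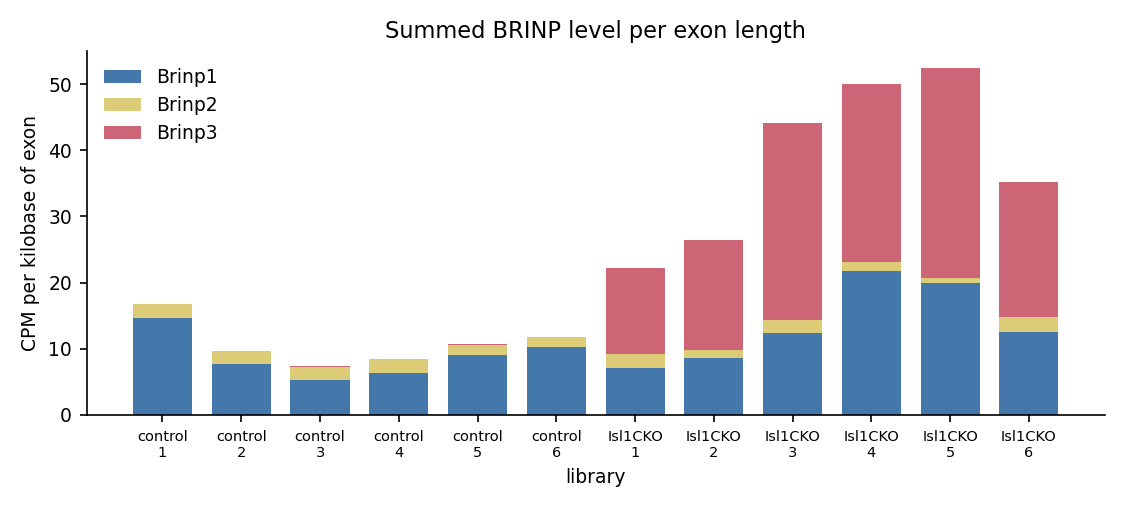
Summed level of the 3 BRINP genes in each of the 12 libraries, in CPM per kilobase of annotated exon, stacked by gene. Brinp1 makes up most of each control bar, and Brinp3 makes up 53.7% to 67.6% of each Isl1CKO bar.

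Within the Isl1CKO group, libraries with more Brinp3 tended to have more Brinp1. Replicates 1 and 2 were the lowest for both genes, and replicates 3, 4 and 5 were the highest for Brinp3 and included the 2 highest for Brinp1. Pearson's r of log2(CPM + 1) between the genes was 0.864 over these 6 libraries and -0.060 over the 6 controls, where Brinp3 is near its floor. Brinp2 went the other way, with r of -0.446 against Brinp3 and -0.509 against Brinp1 within the Isl1CKO group. Points of a correlation share a library and its makeup, and with group means subtracted over 12 libraries Brinp2 also had r of 0.688 with the level of neuron markers and -0.676 with that of Schwann cell markers. Brinp1 had r of -0.607 with neuron markers. With macrophage markers r was 0.358 for Brinp1, 0.599 for Brinp2 and -0.199 for Brinp3. For Brinp3 the values were -0.499 with neuron markers and -0.117 with Schwann cell markers. In sorted samples, fewer cells of a type and less RNA per cell cannot be told apart.

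Genes with the pattern most like Brinp3 were sought by Pearson's r of log2(CPM + 1) over the 12 libraries. The search covered 9909 tested genes whose average abundance reached 3 or more on the log2 CPM scale. This cutoff admits genes that are abundant in 1 group only. The 5 most alike were Lhx1os, Cacna2d1, Cbln2, Emx2 and Lhx2, with r from 0.991 to 0.989. They comprise a non-coding RNA named for the LIM homeobox gene Lhx1, a calcium channel subunit gene, a gene for a secreted synaptic organiser, and a pair of homeobox genes. Each was higher in Isl1CKO libraries, and their levels in controls differed: Cacna2d1 was already at 138 ± 11.2 CPM there, whereas Emx2 was at 0.0886 ± 0.0724 CPM (SD, n = 6). The likeness rests mainly on the difference between the groups, which chose Brinp3.

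For Brinp1 and Brinp2 the group means were subtracted first. The closest to Brinp1 were Pcyt2, Det1 and Tstd2, with r from 0.873 to 0.854, and the most opposite were Snrpb2, Aga and Peg12, with r from -0.895 to -0.868. The closest to Brinp2 were 1700019D03Rik, Eya4 and Arhgef4, with r from 0.914 to 0.896, and the most opposite were Hmgn2, Spata2 and Polr1a, with r from -0.960 to -0.832. These are the extremes of 9909 values over 12 libraries.

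Brinp3 was 1 of 8 rows among 25674, or 0.0312%, with a mean under 1 CPM in controls and at least 10 CPM in every Isl1CKO library. Its place among them, with the highest Isl1CKO mean, describes the values it was chosen on and supports nothing further. The reverse step was found for 3 rows, or 0.0117%. The others were Sytl4 at 79.7 ± 51.1 CPM, Cartpt at 67.1 ± 54.5, Uncx at 48.0 ± 30.8, Lamp5 at 41.6 ± 24.7, Emx2 at 28.1 ± 11.8, Grm5 at 23.9 ± 10.4 and Pcdh20 at 23.7 ± 16.4 in Isl1CKO libraries (SD, n = 6). They encode proteins of unlike kinds, among them a neuropeptide precursor (Cartpt), homeodomain factors (Uncx and Emx2), a glutamate receptor (Grm5) and a protocadherin (Pcdh20). The control library with the most counts was control 5 for Brinp3 and a library other than control 5 for each of the other 7. Control 2 was the highest for Sytl4, Emx2 and Grm5. The highest control held 3 counts for Sytl4, Uncx and Emx2, 7 for Cartpt, 14 for Grm5, 23 for Lamp5 and 52 for Pcdh20. With so few counts for most of these genes, little can be read from the order of the controls.

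**Figure D3:**
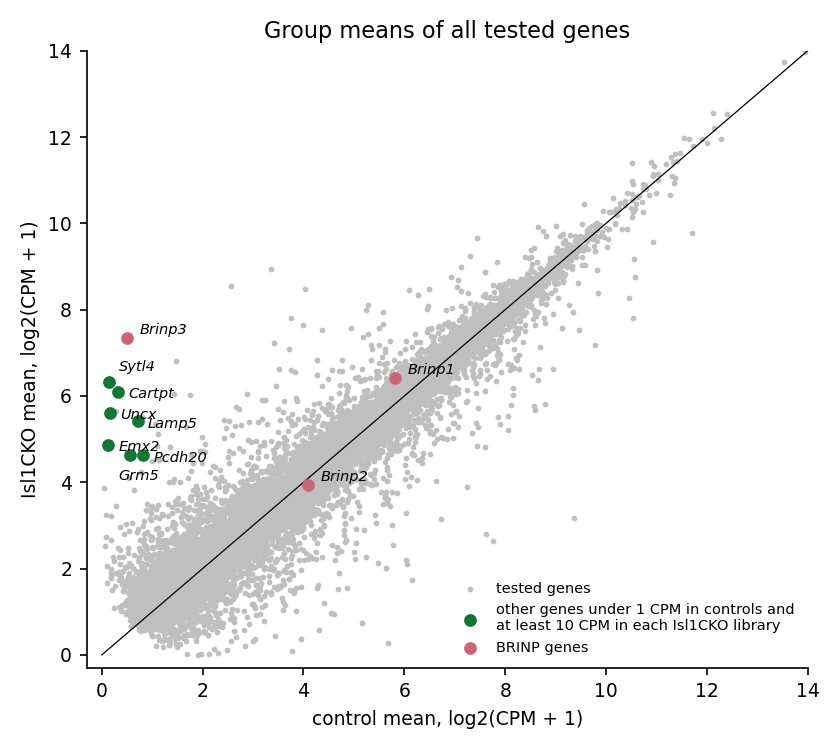
Mean level of each tested gene in controls (horizontal) and in Isl1CKO libraries (vertical), in log2(CPM + 1), with the line of equality. Brinp3 lies above the 7 other genes that pass from under 1 CPM to at least 10 CPM in every Isl1CKO library, while Brinp1 and Brinp2 lie near the line.

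Rows that overlap or adjoin Brinp3 held few counts, but some of them differed in the same direction. Gm29514, an antisense transcript that overlaps the first 301 bases of Brinp3 from the opposite strand, had 0 counts in 5 control libraries and 3 in control 5, against 8, 20, 18, 12, 12 and 14 in Isl1CKO replicates 1 to 6. Its groups did not overlap. Control 5, the only control with counts of Gm29514, was also the control with the most Brinp3.

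A230059L01Rik lies within the Brinp3 span on the opposite strand, 308 kb beyond its start. It had 2 counts over the 6 controls and 86 over the Isl1CKO libraries, of which replicates 2 and 4 held 29 and 38 and replicate 3 held 0. Gm38187, a transcript of uncertain status whose nearer end lies 12.4 kb before Brinp3 on the opposite strand, had 2 counts over the controls and 16, 31, 19, 48, 1 and 72 in Isl1CKO replicates 1 to 6. The library with the most Brinp3, Isl1CKO 5, thus had the fewest counts of Gm38187 in its group. Gm15583 and Gm15584, also within the span, had 11 and 16 counts over the Isl1CKO libraries and 7 and 1 over the controls. None of these rows passed the filter on low counts. The use of strand in counting is not given in the sources used here. Where a row on the opposite strand overlaps Brinp3, reads from its RNA and from Brinp3 RNA therefore cannot be told apart. Overlap here is that of whole gene spans, introns included, and overlap between exons was not examined. For Gm29514 the spans share 301 bases, and Gm38187 does not overlap Brinp3.

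**Figure D4:**
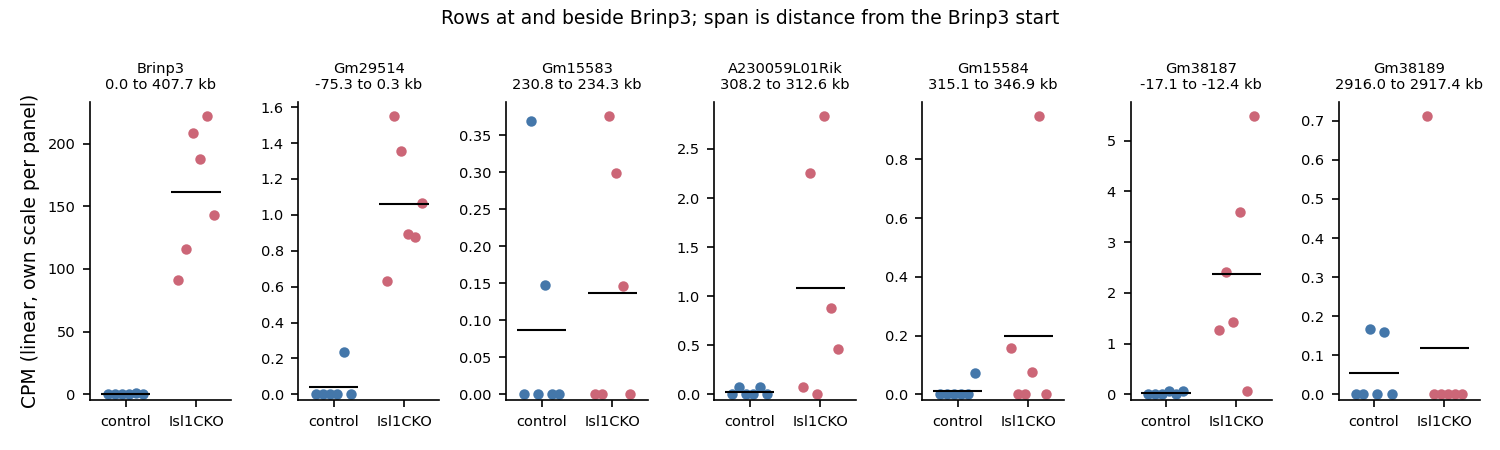
CPM in each library of Brinp3, of the rows that overlap it and of the nearest row on each side, with a line at the group mean; each panel has its own linear scale, and the span under each name is the distance from the Brinp3 start. Gm29514 and Gm38187 differ in the direction of Brinp3 at levels of a few CPM or less, and Gm38187 is close to 0 in Isl1CKO 5.

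Further from the 3 genes, the nearest 5 rows on each side of each gene gave 30 neighbours, of which 8 were tested and 1 passed the threshold, or 12.5% against 10.2% of all tested genes. That row was 2810025M15Rik, a transcribed pseudogene 944 kb from the Brinp2 start. It went from 19.8 ± 4.31 to 40.5 ± 9.16 CPM (n = 6, SD). The fitted difference was 1.03 ± 0.19 (log2, SE; adjusted p = 0.00269, edgeR), and 0.99 without Isl1CKO 2, 3 and 5 (adjusted p = 0.0402). The neighbour closest to any member, Astn1, whose start is 5.947 kb from that of Brinp2, had means of 81.3 ± 15.5 and 80.1 ± 22.8 CPM (SD, n = 6; adjusted p = 0.960, edgeR). The nearest protein-coding neighbours of Brinp3 before its start, Rgs18 and Rgs21, averaged 0.120 and 0.0623 CPM in controls and 0.0381 and 0.0900 CPM in Isl1CKO libraries, all under the floor. The nearest protein-coding row after it, Pla2g4a, 3467 kb from its start, averaged 0.0777 ± 0.0704 CPM in controls and 1.57 ± 1.86 CPM in Isl1CKO libraries (n = 6, SD), with overlapping groups, and was not tested.

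Of the other genes with a MACPF domain, 3 were tested and 0 passed the threshold, against 10.2% of all tested genes, so that little can be read from the count. Astn1 and Astn2 encode astrotactins, neuronal membrane proteins known from the migration of neurons along glia. Astn1 is the row next to Brinp2, and Astn2 is the fifth row before Brinp1, 2550 kb away. Astn2 went from 8.73 ± 4.37 to 4.88 ± 3.61 CPM (n = 6, SD), which is -0.84 as a fitted log2 difference (adjusted p = 0.267, edgeR). It was past the threshold without Isl1CKO 1, at -1.33 (adjusted p = 0.0394, edgeR). Of the 3 tested genes, 0 had an unadjusted p under 0.05 in the edgeR fit of all 12 libraries without covariates or a block. DESeq2 and limma-voom each called 0 after adjustment. Astn2 had an unadjusted p of 0.0451 in limma-voom and of 0.0414 in edgeR with a replicate block.

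The family is named for induction by BMP and retinoic acid, so genes of both pathways were read in the same fit. Among retinoic acid genes, 18 of 22 listed were tested and 2 passed, both lower, which is 11.1% against 10.2% of all tested genes. Their median log2 fold change was -0.35, against 0.0045 over all tested genes. Stra6, which encodes the membrane receptor that takes up retinol, went from 124 ± 41.6 to 54.8 ± 19.5 CPM (n = 6, SD), which is -1.18 as a fitted log2 difference (adjusted p = 0.00568, edgeR), and its groups overlapped. The corepressor gene Ncor1 had a fitted log2 difference of -0.18 and did not pass (adjusted p = 0.488, edgeR).

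Among BMP pathway genes, 26 of 41 listed were tested and 7 passed, 6 lower and 1 higher. That is 26.9% against 10.2% of all tested genes, and the median log2 fold change was -0.50. Smad1 and Smad4, which encode signal transducers of the pathway, were lower without overlap, with fitted log2 differences of -0.76 and -0.85 (adjusted p = 0.00571 and 0.0106, edgeR). They fall outside the rule for named genes and were added after their values were seen. In the fit without Isl1CKO 2, 3 and 5 they did not both keep their calls. Chrdl1, which encodes a secreted BMP antagonist, went from 654 ± 147 to 8.0 ± 7.76 CPM (n = 6, SD), which is -6.36 as a fitted log2 difference (adjusted p = 3.01e-06, edgeR). Twsg1, which encodes a secreted modulator of BMP binding, was the 1 that rose, from 59.3 ± 4.88 to 84.9 ± 8.59 CPM (n = 6, SD), which is 0.52 as a fitted log2 difference (adjusted p = 0.00249, edgeR). Without Isl1CKO 2, 3 and 5 its adjusted p was 0.0633.

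The BMP co-receptor gene Rgma, whose product also binds neogenin, fell from 64.3 ± 11.6 to 22.5 ± 8.24 CPM and the neogenin gene Neo1 from 194 ± 28.6 to 106 ± 21.9 CPM (SD, n = 6). The fitted log2 differences were -1.51 for Rgma (adjusted p = 3.81e-04, edgeR) and -0.87 for Neo1 (adjusted p = 7.98e-04, edgeR). The related Rgmb had a log2 fold change of 0.46 that did not pass (adjusted p = 0.0674, edgeR), though it did under 6 of the other settings. Of the ID genes, common BMP targets, Id4 fell from 42.1 ± 4.89 to 14.6 ± 7.22 CPM (n = 6, SD), which is -1.53 as a fitted log2 difference (adjusted p = 0.00150, edgeR). Id2, the most abundant of them, was at 318 ± 64.1 and 421 ± 102 CPM (SD, n = 6) and did not pass (adjusted p = 0.132, edgeR). Id1 and Id3 had fitted log2 differences of -0.34 and -0.27 that did not pass (adjusted p = 0.621 and 0.720, edgeR), and differences between the ID genes were not tested. Without Isl1CKO 2, 3 and 5, 5 BMP pathway genes passed, all lower, and 2 retinoic acid genes, both lower. Chrdl1, Rgma, Neo1, Id4 and Stra6 were then at -7.07, -1.40, -0.77, -1.55 and -1.33 (log2), with edgeR adjusted p from 2.93e-06 to 0.0235.

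Genes of the step from G1 to S phase, which BRINP proteins hold back when overexpressed, moved in both directions. Of 26 listed, 22 were tested and 4 passed, 2 higher and 2 lower, or 18.2% against 10.2% of all tested genes, with a median log2 fold change of 0.28. Ccnd1, which encodes cyclin D1, went from 35.4 ± 17.3 to 164 ± 102 CPM (n = 6, SD), which is 2.21 as a fitted log2 difference (adjusted p = 0.00174, edgeR). Cdkn1a, which encodes the cell cycle inhibitor p21, went from 78.4 ± 15.0 to 151 ± 48.0 CPM, which is 0.94 as a fitted log2 difference (adjusted p = 0.00526, edgeR). Cdkn2d, another inhibitor gene, and E2f7, a repressor of S phase genes, had log2 fold changes of -0.28 and -1.18 close to the threshold (edgeR adjusted p of 0.0450 and 0.0476). These calls were lost under 14 of 22 and 15 of 21 other settings, and without Isl1CKO 2, 3 and 5 the only call on the list was Ccnd1, Cdkn1a then having an edgeR adjusted p of 0.0842. The kinase gene Cdk4 and the inhibitor gene Cdkn1c did not pass, with fitted log2 differences of 0.26 (adjusted p = 0.0835, edgeR) and -0.58 (adjusted p = 0.111, edgeR).

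**Figure D5:**
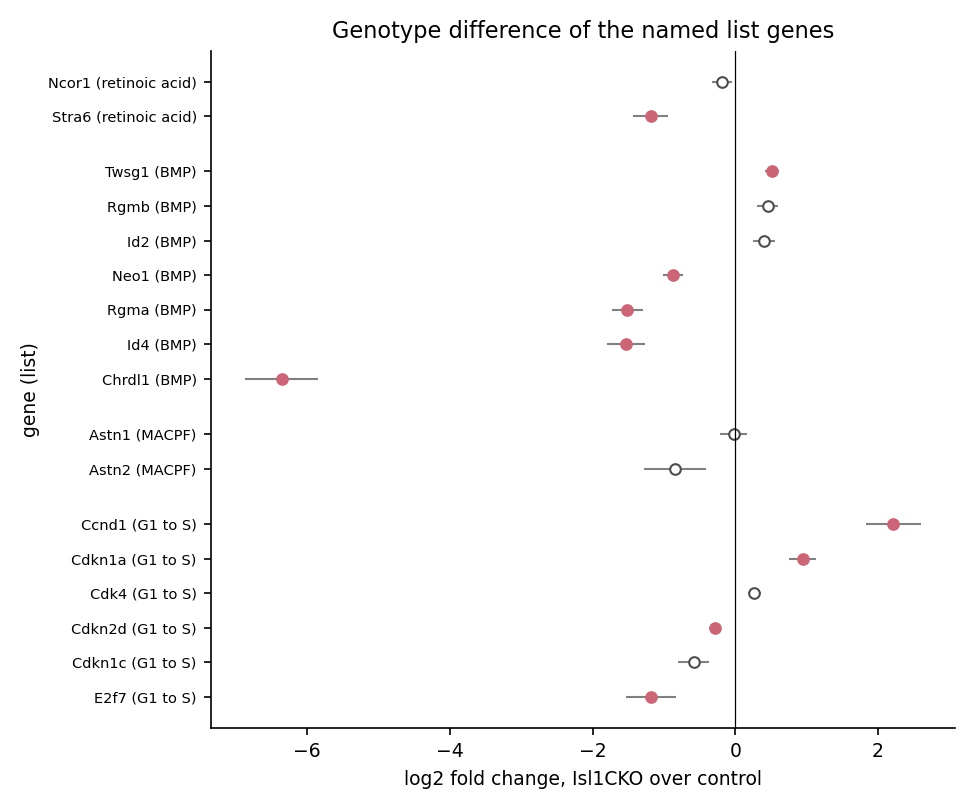
Log2 fold change of Isl1CKO over control for genes named from the retinoic acid, BMP, MACPF and G1 to S lists, with bars of 1 standard error; filled points passed an adjusted p of 0.05 and open points did not. Chrdl1 lies lowest at -6.36 and Ccnd1 highest at 2.21.

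Levels of markers of other cell types were read beside these results. Macrophage markers summed to between 2.07 and 426 CPM in controls and between 1.60 and 770 CPM in Isl1CKO libraries, and 0 of 9 tested passed. Schwann cell markers summed to 73.8 to 247 and 48.5 to 292 CPM, and 1 of 8 tested passed, Cnp, lower. The mean level of neither list passed in the exact permutation test (adjusted p of 0.433 and 0.595). Mesenchyme markers had a higher mean level in Isl1CKO libraries, at 1.85 ± 0.222 against 1.13 ± 0.150 in log2(CPM + 1) (n = 6, SD; p = 0.00216 by exact permutation, the smallest this design can give, and 0.0173 after adjustment over 8 lists), summing to 38.7 to 85.1 CPM in controls and 72.0 to 122 CPM in Isl1CKO libraries. Of 4 tested, 2 passed, both higher, Tbx18 (1.09 ± 1.45 to 39.5 ± 10.0 CPM) and Col3a1. Pou3f4, the most abundant of the list in controls, was lower, at 52.9 ± 16.4 and 27.4 ± 13.4 CPM (n = 6, SD). It did not pass (adjusted p = 0.143, edgeR). In the fit without Isl1CKO 2, 3 and 5, 1 mesenchyme marker was called higher and 1 lower. Col1a2 and Prrx1 had means of 1.30 and 0.337 CPM in controls and 4.67 and 4.72 CPM in Isl1CKO libraries, and their groups overlapped. Col1a1 and Pdgfra were at 0.234 and 0.196 CPM in controls and 0.564 and 0.701 CPM in Isl1CKO libraries, and Twist1 was at 1.13 and 0.0129 CPM. The mean difference of hair cell markers was -0.47 and that of otic epithelium markers 0.33 (exact permutation adjusted p of 0.0289 and 0.0433), with 1 of 5 tested passing, Ccer2, lower, and 0 of 2. The neuron markers themselves differed by -0.64 (exact permutation adjusted p = 0.0289), with 4 of 12 lower (Nefm, Nefl, Gata3 and Elavl4) and 2 higher (Stmn2 and Neurod1). The rest did not pass: Tubb3, Elavl3, Snap25 and Gap43 had fitted log2 differences of 0.30, 0.024, 0.022 and 0.11. Prph and Pou4f1 had -0.66 and -0.20. Called markers were thus 50.0% of those tested for the neuron and the mesenchyme lists, 12.5% for Schwann cell and 20.0% for hair cell markers, against 10.2% of all tested genes. Without Isl1CKO 2, 3 and 5, 0 of the 8 lists passed in the permutation test, but 3 libraries against 6 can give no p below 0.0119, which is 0.0952 for 1 list after adjustment. Erythroid and endothelial markers had adjusted p of 0.544 and 0.367 in the same test. Over the other settings of this test, the hair cell call was lost in 9 and kept in 6. The otic epithelium call was lost in 10 and kept in 5, the neuron call in 6 and 9, and the mesenchyme call in 1 and 14. Otic epithelium levels were low, at 0.563 ± 0.108 in controls and 0.892 ± 0.274 in Isl1CKO libraries (log2(CPM + 1), SD, n = 6). The part of these markers in the level of Brinp3 was not tested. The fit with macrophage and Schwann cell covariates held none of the lists whose mean level passed.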

How the data were processed

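RNA of sorted tdTomato+ neurons was sequenced in 12 samples. Per the submitters' processing notes, cutadapt 1.18, Bowtie 1.2.2, STAR 2.7.0c, featureCounts and GRCm38.p6 were used. Parameters, annotation release and strand setting are not given in the sources used here. The authors deposited raw counts per gene, with 25674 rows, of which 25620 matched a symbol and 25627 GENCODE M21. Every row of the deposited table totals at least 10 counts.

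Groups were compared with edgeR 4.0.16 (quasi-likelihood F-test, TMM, filterByExpr, Benjamini-Hochberg adjustment over 14813 genes, threshold 0.05) in R 4.3.3, tested on simulated data. DESeq2 1.42.0, limma-voom (limma 3.58.1), other filters, marker covariates, a replicate block, leaving out each library, and leaving out Isl1CKO 2, 3 and 5 were alternatives. The SE of a fitted difference was worked back from its size and the F statistic of its test. Marker lists were compared by exact two-sided permutation of mean log2(CPM + 1). Rows named from each pathway list are up to 5 past the threshold with the smallest p and the 2 most abundant not past it, beside the nearest neighbours; some of these are not reported here. The Brinp3 ratio without control 5 was chosen after seeing the data. The members and lists were chosen with earlier results of these data known.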

Additional observations from a re-analysis of the deposited data

Results flagged for a closer look

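Of 28 group values examined, 3 held a library far from the other 5 of its group, where chance gives about 1.4. Control 5 had 1.11 CPM of Brinp3, and the next control had 0.366. Control 3 had the lowest mesenchyme marker level, at 0.836 in log2(CPM + 1), and the next had 1.12. Control 3 also had the highest share of mitochondrial counts, at 1.65%, and the next had 1.183%.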

How the results depend on the processing

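Brinp1 kept its direction and its side of the threshold under all 22 alternatives. The fitted log2 difference of Brinp3 ran from 8.37 to 9.13 over them. Nothing is read from its unchanged direction, because the comparison chose Brinp3 and its groups lie far apart. Without Isl1CKO 2, 3 and 5, Brinp2 turned to 0.079 and Astn1 to 0.17 on the log2 scale, and the Schwann cell marker difference to -0.0125. The same setting called 767 genes in place of 1511, 1 G1 to S gene in place of 4 and 2 neighbours in place of 1, with fewer samples in the fit. In the permutation test it gave 0 of 8 marker lists in place of 4, where 3 libraries against 6 can give no p below 0.0119 and so none under 0.0952 for a single list after adjustment. With no filter on low counts, 2 G1 to S genes and 3 neighbours were called, and the cause was not tested. Leaving out each library in turn gave 1178 to 1517 called genes, 0 to 1 MACPF genes, 2 to 4 G1 to S genes, 1 to 2 neighbours and 1 to 4 marker lists. It moved Astn1 between -0.14 and 0.085 and the Schwann cell difference between -0.000267 and 0.48. Replicate numbers did not pair the samples: same-numbered samples correlated at -0.0560 to 0.152 and 2 of 6 matched their own number best. A replicate block called 1450 genes and gave 0.60 for Brinp1 (edgeR adjusted p = 0.306), -0.23 for Brinp2 and 8.62 for Brinp3. At 3 counts a library, control levels of Brinp3 lie near the floor, which limits the precision of its ratio.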

Other observations

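The reverse of the Brinp3 pattern was seen in 3 of 25674 rows, or 0.0117%, with a mean under 1 CPM in Isl1CKO libraries and at least 10 CPM in every control library. Helt, which encodes a bHLH transcription factor, went from 50.3 ± 13.0 to 0.207 ± 0.301 CPM (SD, n = 6). Shh, which encodes the secreted signal sonic hedgehog, went from 22.4 ± 10.9 to 0.970 ± 1.181 CPM, and Gm43519 from 23.4 ± 8.09 to 0.926 ± 1.15 CPM (SD, n = 6).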
